A study of Rattus norvegicus with 5 samples.

Results

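The interferon response genes are a set of 32 named genes that cells switch on when interferon reaches them, together with the factors that carry the signal. They were picked by symbol from the table of estimated counts, in which 29 of the 32 have a row among 17321; Ifi44l, Xaf1 and Herc6 were not analysed here. All 29 passed the low-count filter, so all 29 are among the 13478 genes tested. The tissue was the dorsal horn of lumbar spinal cord (L4 to L6), the region that receives sensory fibres from the hindlimb, of Sprague Dawley rats on day 9 after surgery. The CCI group (3 libraries) had the surgery abbreviated CCI, the usual short form of chronic constriction injury of a nerve. The SHAM group (2 libraries) had the operation alone. The labels give no further allele, drug or age, and do not say whether each library came from its own animal, so each p-value reflects only how these libraries vary, which may be technical. The questions here were whether the interferon genes differed between CCI and SHAM, and which CCI library carried the difference.

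Interferons are secreted proteins that act through cell-surface receptors and the JAK kinases. Type I interferons lead a complex that holds STAT2 and IRF9 to bind a DNA element called ISRE, whereas interferon gamma, made mainly by T cells and natural killer cells, acts through an element called GAS and turns on IRF1. The induced proteins sense foreign RNA or DNA, block virus entry and replication, or help present antigen. In the spinal cord, microglia, astrocytes, vessel cells and entering leukocytes can all respond.

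Total estimated counts lay between 20053353 and 23673198 per library. In CCI 3 the share taken by ribosomal RNA was 16%, while it was 2.18% to 2.71% elsewhere. The tissue label was checked against markers: 15 dorsal horn neuron markers had summed levels of 3063 to 3173 CPM (counts scaled to library size with trimmed mean of M-values factors) in CCI and 3290 to 3378 CPM in SHAM, with no marker called. Of 6 motor neuron markers 4 were called lower, with summed levels of 125 to 354 CPM in CCI and 535 to 783 CPM in SHAM. Of 14 microglial markers 10 were called higher, with summed levels of 1280 to 1419 CPM in CCI and 437 to 491 CPM in SHAM. The 12 Schwann cell markers summed to 632, 785 and 1152 CPM in CCI 1, CCI 2 and CCI 3, and to 770 and 728 CPM in SHAM 1 and SHAM 2. The 12 fibroblast and meningeal markers summed to 191, 908 and 763 CPM in CCI 1, CCI 2 and CCI 3, against 206 and 236 CPM in SHAM, so CCI 2 and CCI 3 stood apart from the other libraries in these genes.

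Of the 29 interferon response genes, 1 rose, and it was Ifi30, the gene of a lysosomal thiol reductase that unfolds antigens for presentation. None fell. A call here needs both an adjusted p of 0.05 or less in edgeR's quasi-likelihood test and a 1.5-fold difference. By that rule 3.45% of the members were called higher, and 2.59% of all tested genes were; 0.26% of all tested genes were called lower. The share called was therefore near the background. The directions were less even: 27 of the 29 had a log2 fold change above 0, as did 51.9% of all tested genes, and the median was 0.41 against 0.01 over all tested genes. An unadjusted p of at most 0.05 with a higher level in CCI was reached by 13 members, where the background was 9.65% of tested genes; no member reached it in the lower direction, where the background was 6.32%. In 16 members every CCI library lay above both SHAM libraries, an order that 18.6% of all tested genes showed. In bulk tissue, more cells of a type and more RNA per cell cannot be told apart, which holds for every value below.

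**Figure D1:**
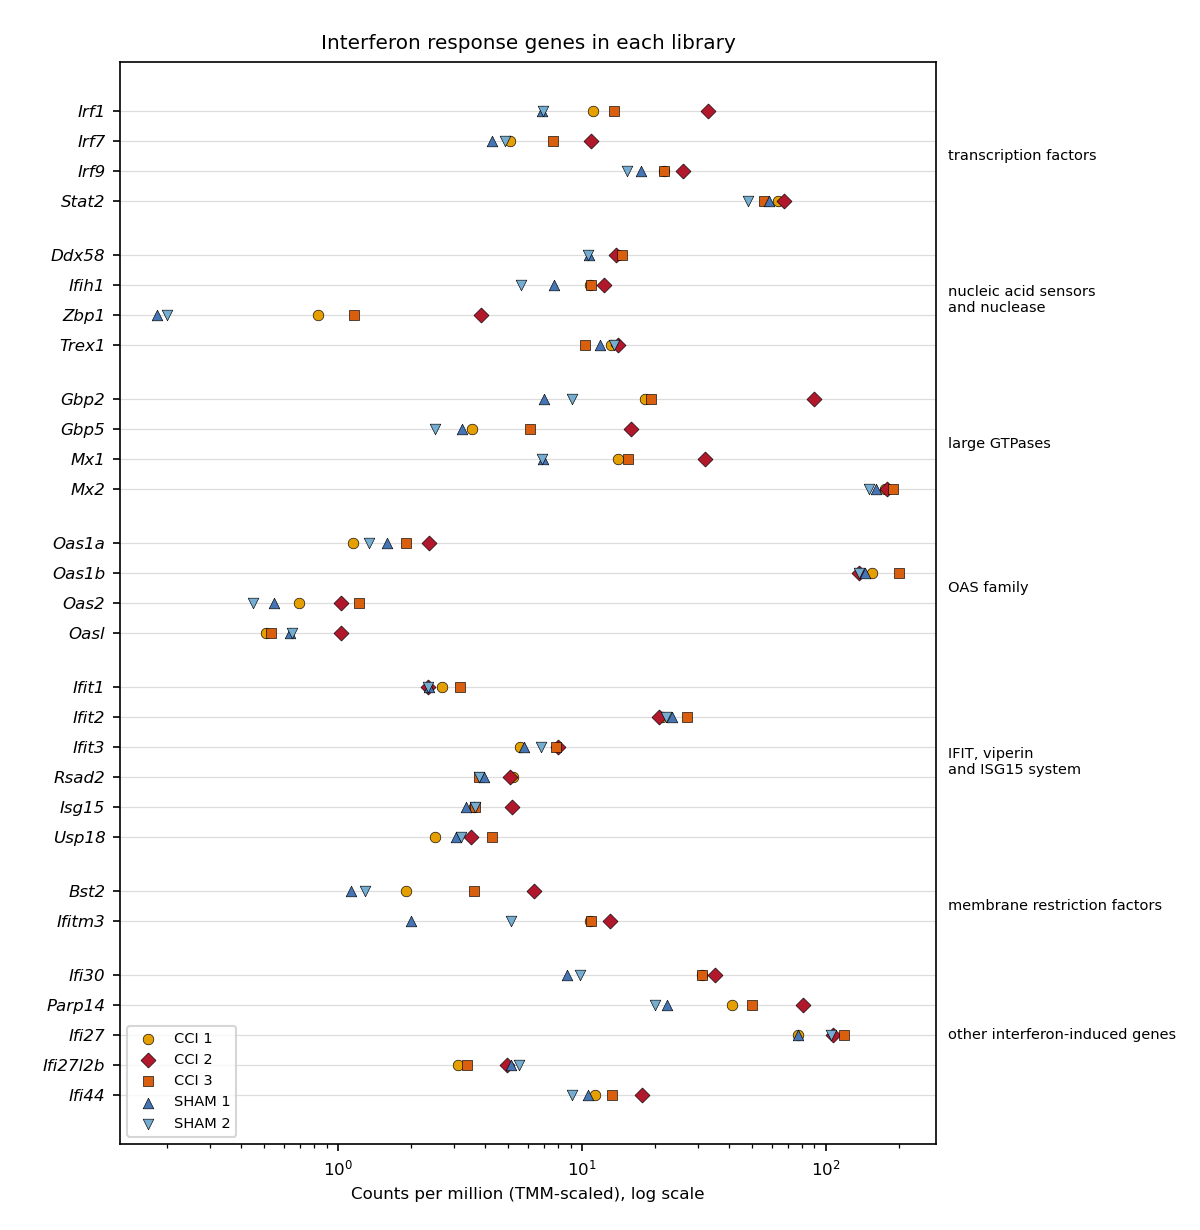
Level of each of the 29 interferon response genes in each library, in CPM on a log scale, with genes grouped by role. Each mark is 1 library. Ifi30 shows 3 CCI marks close together at 31.1 to 35.1 CPM, well right of the SHAM marks, while Gbp2, Irf1 and Zbp1 each have the CCI 2 diamond far right of the other CCI marks.

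The count of calls depended on single libraries and on the test. Without CCI 2 it was 6 (Gbp2, Ifi30, Irf1, Mx1, Parp14 and Zbp1), where 3.03% of all genes tested were called higher, and without CCI 1 it was 6 (Bst2, Ifi30, Irf7, Mx1, Parp14 and Zbp1), where the background was 4.8%. Without CCI 3 it was 1 (background 2.18%), without SHAM 1 it was 1 (background 0.445%) and without SHAM 2 it was 2 (background 0.532%). DESeq2 and the likelihood ratio test each called 7 (Bst2, Ifi30, Ifih1, Ifitm3, Mx1, Parp14 and Zbp1), against backgrounds of 3.47% for DESeq2 and 4.24% for the likelihood ratio test. Limma-voom called 2 (background 2.2%), and the fit with the Schwann cell markers as a covariate called 1 (background 1.28%). Ifi30 was called in each of these fits.

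Ifi30 had 31.1, 35.1 and 31.2 CPM in CCI 1, CCI 2 and CCI 3, against 8.75 and 9.86 CPM in SHAM 1 and SHAM 2. The groups were far apart, and the 3 CCI libraries lay within a narrow range. Ifi30 averaged 32.4 ± 2.28 CPM in the 3 CCI libraries and 9.3 ± 0.786 CPM in the 2 SHAM libraries (SD). That is 3.50-fold (log2 1.81, SE 0.13), with an adjusted p of 0.000298 by edgeR's quasi-likelihood test. Ifi30 ranked 13 of all tested genes by p. Its row holds fractional counts, meaning that some reads were shared with another row, and no partner was found among the lists used here.

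Ifitm3, which encodes a membrane protein that hinders the fusion of viruses with endosomes, came next by p. It stood at 10.8, 13.1 and 10.9 CPM in the CCI libraries, against 2.01 and 5.11 CPM in the SHAM libraries. The CCI libraries were alike and all higher, while the SHAM libraries differed from each other. Its log2 fold change was 1.72 (SE 0.36, adjusted p = 0.056 by edgeR's quasi-likelihood test). The value rests partly on SHAM 1, since it was 1.19 without SHAM 1 and 2.53 without SHAM 2, where it was called. Ifitm3 also shared reads with Ifitm2, a close family member: the fractional counts of both rows add up to whole numbers, within 0.01, in every library. Summed, the pair had 428, 773 and 408 counts in CCI 1, CCI 2 and CCI 3, against 179 and 246 counts in SHAM, and the sum was called (log2 fold change 1.24, adjusted p = 0.0488 by the same test; this sum was chosen after the data were seen).

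Bst2, which encodes tetherin, a protein that holds budding viruses on the cell surface, differed widely among the CCI libraries. It stood at 1.90, 6.39 and 3.61 CPM in CCI 1, CCI 2 and CCI 3, against 1.14 and 1.30 CPM in SHAM. All 3 CCI libraries were above SHAM, with CCI 2 the highest. Its log2 fold change was 1.71 (SE 0.52, adjusted p = 0.16).

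**Figure D2:**
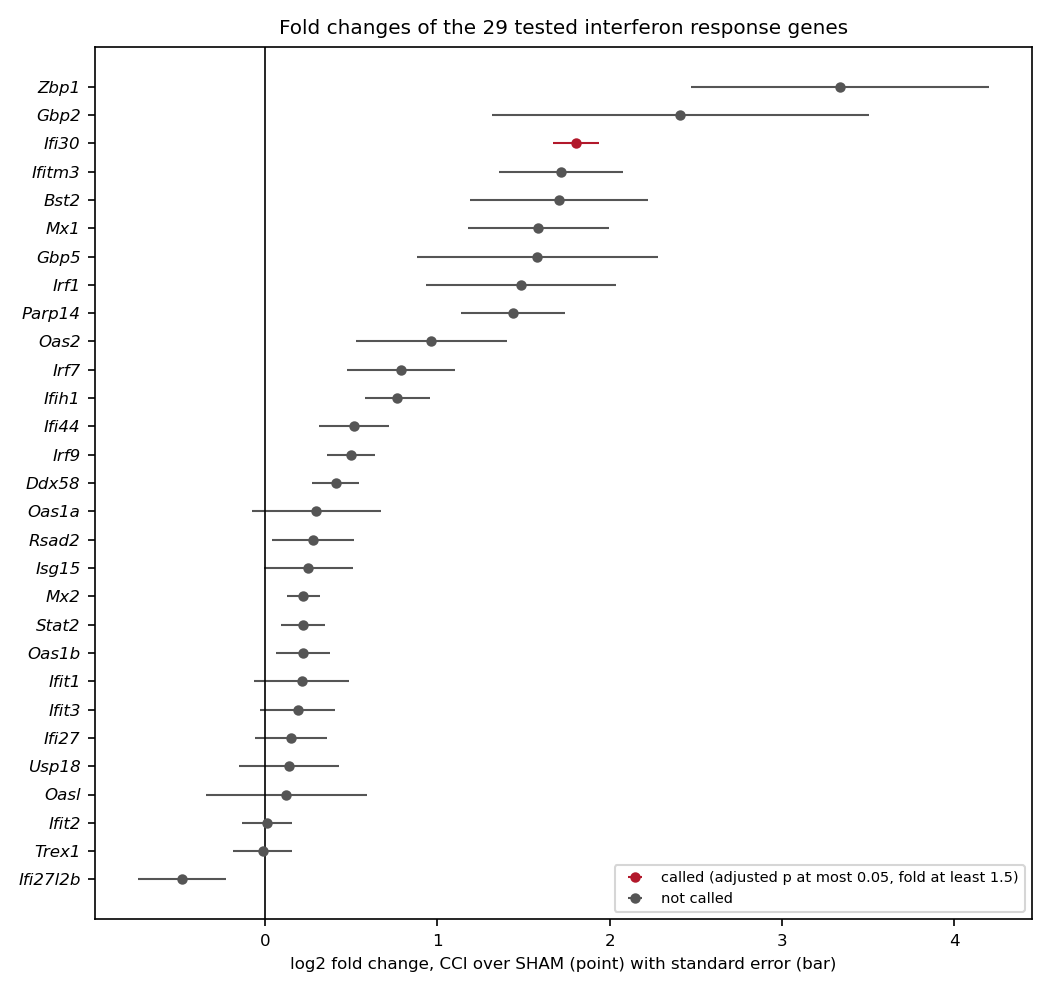
Fold changes (log2) of CCI over SHAM (points) with their standard errors (bars) for the 29 tested interferon response genes, ordered by size. Ifi30, the called gene, has a short bar (SE 0.13), while Gbp2, with a larger fold change of 2.41, has a long bar (SE 1.09).

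The large GTPases of the list fell into 2 patterns. Gbp2 and Gbp5 encode guanylate-binding proteins, which attack membranes around intracellular microbes and are typical targets of interferon gamma. Gbp2 had 18.2, 90.0 and 19.2 CPM in CCI 1, CCI 2 and CCI 3, against 7.001 and 9.09 CPM in SHAM 1 and SHAM 2. CCI 2 was 4.82 times the mean of the other CCI libraries, and even those were above both SHAM libraries. A log2 fold change of 2.41 had an SE of 1.09 and did not pass (adjusted p = 0.414). Without CCI 2 the log2 fold change fell to 1.22, yet Gbp2 was then called (adjusted p = 0.00239, edgeR's quasi-likelihood test). Gbp5 stood at 3.56, 15.9 and 6.16 CPM in the CCI libraries, against 3.23 and 2.50 CPM in SHAM (log2 fold change 1.58, SE 0.70, adjusted p = 0.362), and without CCI 2 the log2 fold change was 0.76 (adjusted p = 0.308). In CCI 3 the counts of Gbp2 and Gbp5 were fractional and add up to a whole number, so some reads there could belong to either row.

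Mx1 and Mx2 encode dynamin-like GTPases that block virus replication. Mx1 stood at 14.1, 32.1 and 15.5 CPM in CCI 1, CCI 2 and CCI 3, against 6.91 and 6.85 CPM in SHAM. The SHAM libraries were nearly equal and every CCI library was at least 2.04 times their mean, with CCI 2 at 4.67 times. The log2 fold change was 1.59 (SE 0.41, adjusted p = 0.139), and it was 1.11 and called without CCI 2 (adjusted p = 0.00417, edgeR's quasi-likelihood test). Mx2 was more abundant and almost flat, at 176, 179 and 189 CPM in CCI, against 160 and 150 CPM in SHAM (log2 fold change 0.22, SE 0.10, adjusted p = 0.31). Reads were shared between the Mx1 and Mx2 rows in every library, so the split between them is uncertain. Summed, the pair had a log2 fold change of 0.32 (adjusted p = 0.164 by the same test; this sum was also chosen after the data were seen), and Mx2 held most of the summed counts.

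Among the transcription factors, Irf1, an early target of interferon gamma, had the largest fold change. It stood at 11.2, 33.0 and 13.6 CPM in CCI 1, CCI 2 and CCI 3, against 6.86 and 6.95 CPM in SHAM. Every CCI library was above SHAM, and CCI 2 was 2.66 times the mean of the other CCI libraries. The log2 fold change was 1.49 (SE 0.55, adjusted p = 0.299); without CCI 2 it was 0.84 and called (adjusted p = 0.0363, edgeR's quasi-likelihood test). Irf7, which amplifies type I interferon production, had 5.09, 10.9 and 7.64 CPM in the CCI libraries, against 4.27 and 4.85 CPM in SHAM (log2 fold change 0.79, SE 0.31, adjusted p = 0.269). CCI 1 was barely above SHAM there, and without it the log2 fold change was 1.03 and passed (adjusted p = 0.0377).

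The differences in Irf9 and Stat2, members of the type I complex, were smaller. Irf9 had 21.7, 25.9 and 21.7 CPM in CCI, against 17.5 and 15.3 CPM in SHAM (log2 fold change 0.50, SE 0.14, adjusted p = 0.112). Its groups did not overlap. Stat2 had 63.5, 67.4 and 55.8 CPM in CCI, against 58.8 and 48.0 CPM in SHAM (0.22, SE 0.13, adjusted p = 0.44), and its groups overlapped.

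The nucleic acid sensors held the largest fold change of the list. Zbp1 encodes a sensor of left-handed nucleic acid that can start cell death. It had 18, 97 and 22 counts in CCI 1, CCI 2 and CCI 3, against 4 and 4 counts in SHAM, or 0.833, 3.85 and 1.17 CPM against 0.182 and 0.200 CPM. CCI 2 held most of the counts, but CCI 1 and CCI 3 were also 4.36 and 6.11 times the SHAM mean. The log2 fold change of 3.34 (SE 0.87, adjusted p = 0.108) rests on few SHAM counts; without CCI 2 it was 2.35 and called (adjusted p = 0.0386, edgeR's quasi-likelihood test).

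Ifih1 (MDA5) and Ddx58 (RIG-I), the cytosolic RNA sensors, had smaller and more even differences. Ifih1 stood at 10.8, 12.4 and 10.9 CPM in CCI, against 7.68 and 5.65 CPM in SHAM (log2 fold change 0.77, SE 0.19, adjusted p = 0.0725). Ddx58 stood at 14.1, 13.9 and 14.6 CPM in CCI, against 10.7 and 10.6 CPM in SHAM (0.41, SE 0.14, adjusted p = 0.18). In both genes the 3 CCI libraries were close together and above SHAM. Trex1, a nuclease that clears cytosolic DNA, had 13.2, 14.1 and 10.3 CPM in CCI, against 11.9 and 13.5 CPM in SHAM, and its log2 fold change was -0.01 (SE 0.17).

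Parp14, which encodes an ADP-ribosyltransferase linked to macrophage activation, had 41.4, 80.4 and 49.95 CPM in CCI 1, CCI 2 and CCI 3, against 22.4 and 19.9 CPM in SHAM. All CCI libraries were well above SHAM, CCI 2 most of all. Its log2 fold change was 1.44 (SE 0.30, adjusted p = 0.0763), and 1.11 and called without CCI 2 (adjusted p = 0.000995, edgeR's quasi-likelihood test). Ifi44, of unsettled function, had 11.3, 17.7 and 13.3 CPM in CCI, against 10.6 and 9.14 CPM in SHAM (0.52, SE 0.20, adjusted p = 0.262).

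The small mitochondrial proteins of the Ifi27 family behaved differently from each other. Ifi27 had 77.2, 108 and 118 CPM in CCI, against 76.9 and 106 CPM in SHAM (log2 fold change 0.15, SE 0.21). Its groups overlapped. Ifi27l2b had 3.10, 4.92 and 3.39 CPM in CCI, against 5.14 and 5.55 CPM in SHAM, and was the only member with every CCI library below SHAM (-0.48, SE 0.26, adjusted p = 0.4); 18.1% of tested genes showed that order.

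The OAS family, whose enzymes make a messenger that activates RNA decay, had log2 fold changes between 0.12 and 0.96 and adjusted p between 0.323 and 0.919. Oas1b was abundant, at 156, 137 and 200 CPM in CCI, against 145 and 137 CPM in SHAM. Oas1a stood at 1.16, 2.36 and 1.91 CPM in CCI, against 1.59 and 1.35 CPM in SHAM. The groups overlapped in both genes. Both rows hold fractional counts, as do those of Ifit2, Ifit3 and Rsad2, and no single partner row was found among the lists used here. Oas2 had 15, 26 and 23 counts in CCI, against 12 and 9 counts in SHAM, the one family member without overlap in CPM. Oasl had 11, 26 and 10 counts in CCI, against 14 and 13 counts in SHAM.

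Another 6 members differed little between the groups. Ifit1, Ifit2 and Ifit3, which bind foreign RNA, Rsad2 (viperin, which makes a chain-ending nucleotide), Isg15 (a ubiquitin-like modifier) and Usp18 (the enzyme that removes it) had log2 fold changes between 0.01 and 0.28 and adjusted p between 0.593 and 0.975. In all 6 the groups overlapped. Isg15 had 3.61, 5.20 and 3.66 CPM in CCI, against 3.36 and 3.65 CPM in SHAM. Ifit2 had 21.4, 20.7 and 27.0 CPM in CCI, against 23.5 and 22.2 CPM in SHAM, a log2 fold change of 0.01 with an SE of 0.14. Usp18 had 2.50, 3.53 and 4.30 CPM in CCI, against 3.05 and 3.20 CPM in SHAM. Ifit1 ranged from 2.34 to 3.18 CPM in CCI, against 2.35 and 2.36 CPM in SHAM, Ifit3 from 5.60 to 8.02 CPM against 5.78 and 6.79 CPM, and Rsad2 from 3.78 to 5.24 CPM against 3.80 and 3.96 CPM.

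Levels between genes can be set side by side only per length, for which the authors' deposited TPM values serve. The highest was Ifi27, at 126 to 194 TPM in CCI and 126 to 169 TPM in SHAM. Oas1b had 97.7 to 142 TPM in CCI and 95.004 to 102 TPM in SHAM, and Mx2 had 85.3 to 93.1 TPM in CCI and 72.0 to 77.3 TPM in SHAM. In these abundant genes the ranges of CCI and SHAM overlapped or lay close together. Among the least abundant, Zbp1 had 0.66 to 3.11 TPM in CCI and 0.144 and 0.156 TPM in SHAM, Oas2 had 0.394 to 0.702 TPM in CCI and 0.308 and 0.252 TPM in SHAM, and Oasl had 0.337 to 0.695 TPM in CCI and 0.42 and 0.425 TPM in SHAM. Gbp2 reached 48.9 TPM in CCI 2, against 9.75 and 10.4 TPM in CCI 1 and CCI 3 and 3.73 and 4.81 TPM in SHAM.

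The CCI 2 library held the highest value of 19 of the 29 members, where 23% of all tested genes had their highest value in that library. CCI 3 was highest in 8 (background 24.9%) and CCI 1 in 1 (background 11.8%). Over the members, the median ratio to the SHAM mean was 1.19 in CCI 1, 1.61 in CCI 2 and 1.37 in CCI 3, and over all tested genes it was 1, 1 and 0.995. In 6 members (Bst2, Gbp2, Gbp5, Irf1, Mx1 and Zbp1) CCI 2 was at least 2 times the mean of CCI 1 and CCI 3, as in 2.21% of tested genes. Each of these 6 also had CCI 1 and CCI 3 above both SHAM libraries. The median log2 fold change of the members was 0.41 with all libraries and 0.34 without CCI 2, and 26 of 29 stayed above 0 there. Leaving out CCI 2 lowered the log2 fold change of each of these 6 genes, which their selection by a high CCI 2 value made certain. Gbp2, Irf1, Mx1 and Zbp1 were then called, and Bst2 and Gbp5 were not.

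**Figure D3:**
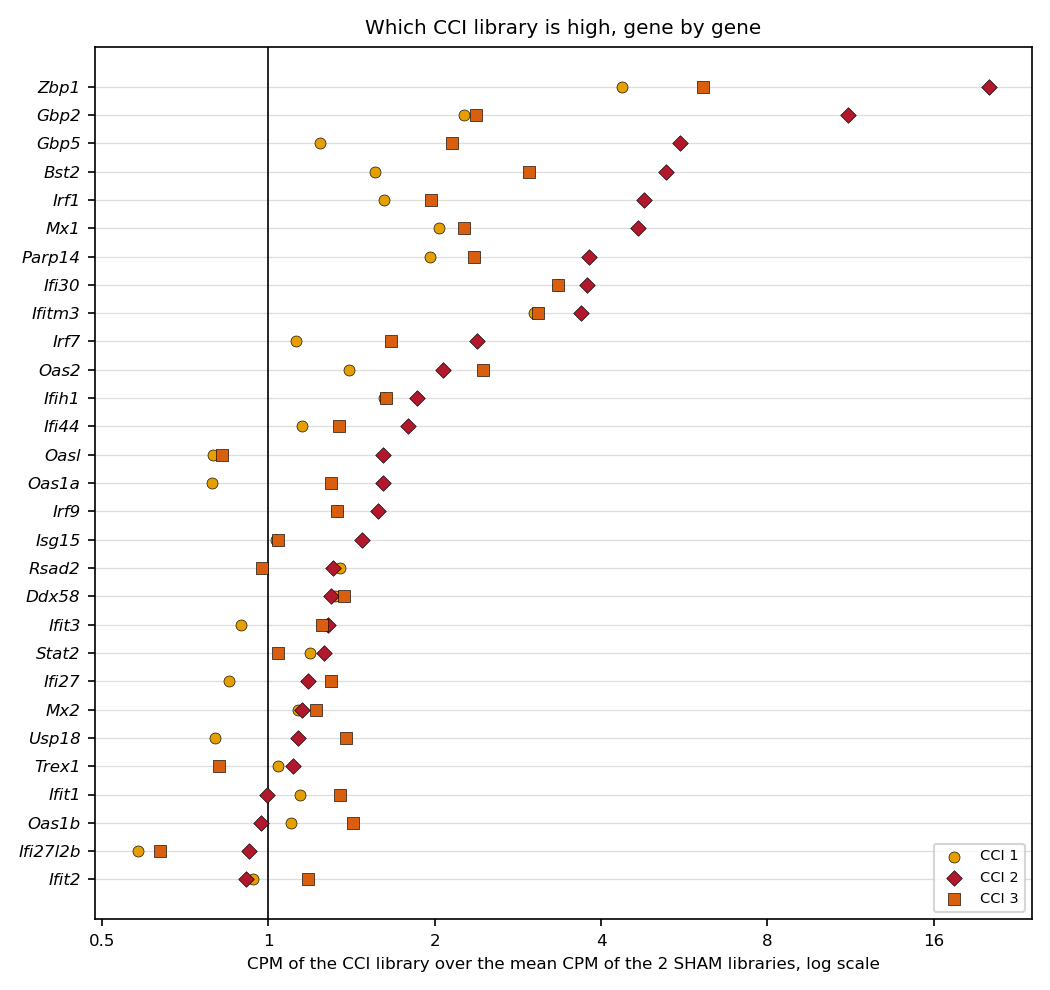
For each interferon response gene, the CPM of each CCI library divided by the mean CPM of the 2 SHAM libraries, on a log scale, ordered by the CCI 2 ratio. The vertical line marks a ratio of 1. CCI 2 stands far right of the other CCI libraries for Zbp1 (20.2), Gbp2 (11.2), Gbp5 (5.55), Bst2 (5.25), Irf1 (4.78) and Mx1 (4.67), and the 3 libraries lie together for Ifi30 and Ifitm3.

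The promoters of these genes were read from RefSeq (build GRCr8; none of the count files' own coordinates were used), 250 bases before to 50 after the gene start. Promoters of 20 of the 29 members were matched by symbol. A match to the ISRE core (GAAA, then any 2 bases, then GAAA), on either strand, was found in 13 of the 20, and in 3.77% of the first promoters of all 27457 genes in the table. A match to the GAS letters TTCNNNGAA, the same on both strands, was found in 7 of the 20 and in 8.68% of all. The ISRE core was matched in Gbp2, Gbp5, Bst2, Parp14, Irf7, Ifi44, Ifih1 and Ifitm3, which were all at their highest in CCI 2. In Ifih1 and Ifitm3 CCI 2 was only 1.14 and 1.21 times the mean of CCI 1 and CCI 3, and Ifitm3 shared reads with Ifitm2. The ISRE core was also matched in Ifit3, Rsad2, Ifi27, Oas1a and Oas1b, whose groups overlapped. It was not matched in the windows of Irf1, Irf9, Stat2, Mx1, Oasl, Trex1 or the called gene Ifi30. The 150 bases before the start are shown for 4 ISRE-bearing genes with high CCI 2 values, for Irf1, which held the GAS letters without the ISRE core, and for Ifi30, which held neither; capitals mark the matches, and in Bst2 the GAS and 2 ISRE matches overlap.
Gbp2: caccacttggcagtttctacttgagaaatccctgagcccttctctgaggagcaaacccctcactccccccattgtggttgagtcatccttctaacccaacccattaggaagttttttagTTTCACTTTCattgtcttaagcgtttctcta
Gbp5: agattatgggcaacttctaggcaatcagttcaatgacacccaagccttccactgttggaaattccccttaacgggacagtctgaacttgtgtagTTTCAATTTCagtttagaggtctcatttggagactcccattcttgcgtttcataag
Bst2: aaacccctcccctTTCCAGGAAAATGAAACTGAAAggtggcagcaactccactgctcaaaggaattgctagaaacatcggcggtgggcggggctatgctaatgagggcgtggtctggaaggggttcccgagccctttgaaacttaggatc
Parp14: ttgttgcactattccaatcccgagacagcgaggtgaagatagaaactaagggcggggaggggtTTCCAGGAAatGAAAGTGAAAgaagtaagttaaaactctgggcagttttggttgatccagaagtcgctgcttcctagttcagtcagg
Irf1: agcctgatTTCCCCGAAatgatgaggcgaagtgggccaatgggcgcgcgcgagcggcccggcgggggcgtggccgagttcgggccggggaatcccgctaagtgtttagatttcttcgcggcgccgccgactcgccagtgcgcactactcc
Ifi30: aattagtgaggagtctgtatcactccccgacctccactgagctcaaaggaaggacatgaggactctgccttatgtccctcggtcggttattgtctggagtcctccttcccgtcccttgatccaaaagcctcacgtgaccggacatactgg
These windows lie at chr2:234005577-234005726 (plus strand) for Gbp2, chr2:233910849-233910998 (plus strand) for Gbp5, chr16:18254968-18255117 (minus strand) for Bst2, chr11:78407984-78408133 (plus strand) for Parp14, chr10:38417785-38417934 (plus strand) for Irf1 and chr16:18709420-18709569 (plus strand) for Ifi30. The Gbp2 and Gbp5 matches start 31 and 56 bases before the gene start on the opposite strand, and the Parp14 match starts 76 bases before it. A match is a run of letters, not a shown binding site.

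Interferon genes themselves were barely detected. Of 11 listed ligands 6 had a row, and 1, Ifnk, had enough counts to be tested (log2 fold change 0.22, SE 0.42, adjusted p = 0.829). Ifng, the gene of interferon gamma, had 2 counts in CCI 2 and 0 in each other library, and Ifnb1 had 1 count in CCI 2 and 0 in each other library. A count of 0 allows up to 3 counts per library, which is 0.119 to 0.159 CPM, so no difference in either gene was detectable at this depth.

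Parts of the wider pathway were higher in CCI. Of the 84 tested genes in 5 further lists of the pathway, 14 rose and none fell, with a median log2 fold change of 0.57, where 2.59% of all tested genes were called higher, 0.26% were called lower and the median was 0.01; these lists were chosen with earlier results of the data known. That count was 0 without SHAM 1, 1 without SHAM 2, 28 without CCI 1, 22 without CCI 2 and 10 without CCI 3, against 0.445%, 0.532%, 4.8%, 3.03% and 2.18% of all genes called higher in those fits. Among 14 receptor and JAK-STAT genes, 2 rose. Ifngr1, the ligand-binding chain of the interferon gamma receptor, had 60.0, 59.4 and 68.9 CPM in CCI, against 25.4 and 29.1 CPM in SHAM (log2 fold change 1.21, SE 0.12, adjusted p = 0.00146). Socs3, a feedback inhibitor of JAK signalling, had 7.36, 4.33 and 4.93 CPM in CCI, against 0.818 and 1.25 CPM in SHAM (2.42, adjusted p = 0.00733). Both were even among the CCI libraries or highest outside CCI 2. Jak2 had an adjusted p of 0.0281 but a log2 fold change of 0.57, under the fold of 1.5.

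The type I receptor chain Ifnar1 had 115, 126 and 119 CPM in CCI, against 112 and 107 CPM in SHAM (log2 fold change 0.13, adjusted p = 0.531 in edgeR's test).

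Of 18 sensors, adaptors and kinases 6 rose, where 2.59% of all tested genes were called higher. The 6 were the endosomal receptors Tlr7 (log2 fold change 1.85), Tlr8 (4.11) and Tlr9 (1.996), their adaptor Myd88 (1.19), the factor Irf5 (1.33) and Tmem173 (1.79), which encodes STING. Tlr8 had 11 and 8 counts in SHAM. Of 6 other interferon regulatory factor genes 1 rose: Irf8, a factor of myeloid cells, had 20.6, 32.6 and 18.6 CPM in CCI, against 4.18 and 4.45 CPM in SHAM (2.48, adjusted p = 0.00357).

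Of 45 further interferon-induced genes 5 rose: Dtx3l (1.09), a ubiquitin ligase, Sp110 (1.21), a nuclear body protein, Slfn13 (1.56), a tRNA-cutting nuclease, Epsti1 (2.32) and Slfn2 (1.04). Over all tested genes 2.59% were called higher. The highest library was CCI 2 in 34 of these 45 and in 23% of all tested genes. Epsti1, known for its part in macrophage activation, had 6.90, 18.1 and 10.02 CPM in CCI, against 2.36 and 2.30 CPM in SHAM.

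CCI 2 also stood apart in chemokines and in some T cell genes, such as Cd3e and Cd8a, which were picked for description after their values were seen. Cxcl9, Cxcl10 and Cxcl11 encode the chemokines that interferon gamma induces and that draw T cells. Cxcl9 had 4, 82 and 4 counts in CCI 1, CCI 2 and CCI 3, against 0 and 1 counts in SHAM. Cxcl10 had 21, 134 and 12 counts in CCI, against 5 and 1 counts in SHAM (log2 fold change 4.00, adjusted p = 0.252). Cxcl11 had 17, 325 and 45 counts in CCI, against 2 and 1 counts in SHAM (6.14, adjusted p = 0.269). The CCI 2 value exceeded all other libraries together in each.

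The marker list of border macrophages and blood leukocytes had 15 rows, 8 of them tested and none called, and its summed level was 132, 178 and 222 CPM in CCI 1, CCI 2 and CCI 3, against 154 and 130 CPM in SHAM. Most of that level came from Ncr1 and Siglec1, both with fractional counts, so the sum follows these rows more than the T cell genes. Siglec1 had 51.9, 61.4 and 75.6 CPM in CCI, against 55.5 and 49.1 CPM in SHAM. Within the list the T cell receptor gene Cd3e had 0, 56 and 9 counts in CCI, against 0 and 0 counts in SHAM, and Cd8a had 6, 76 and 11 counts in CCI, against 1 and 5 counts in SHAM. Cd3d had 2, 23 and 4 counts in CCI, against 0 and 1 counts in SHAM. Cd2, also of T cells, differed less and was present in every library. It had 62, 135 and 66 counts in CCI, against 63 and 41 counts in SHAM. For Cd2, CCI 2 was 1.68 times the mean CPM of CCI 1 and CCI 3. Ly6c had 0, 57 and 4 counts in CCI, against 1 and 0 counts in SHAM. Of the 15 rows 9 were highest in CCI 2 and 6 in CCI 3, where 23% and 24.9% of all tested genes were. The 6 were the macrophage genes Cd163, Mrc1, Lyve1, F13a1 and Siglec1 and the natural killer cell gene Ncr1. Mrc1 had 5.74, 20.2 and 21.6 CPM in CCI, against 3.64 and 6.40 CPM in SHAM, and Ncr1 had 54.0, 57.8 and 85.2 CPM in CCI, against 67.9 and 48.7 CPM in SHAM. None of the 15 rows was at 0 in every library. Of the microglial genes, C1qa (254, 256 and 254 CPM in CCI, against 45.6 and 53.7 CPM in SHAM) and Csf1r (312, 354 and 304 CPM, against 95.6 and 111 CPM) were even among the CCI libraries. Others were less even. Aif1 had 37.8, 48.35 and 31.2 CPM in CCI, against 7.001 and 12.3 CPM in SHAM. Tyrobp had 22.1, 29.8 and 20.6 CPM in CCI, against 5.77 and 7.245 CPM in SHAM. In both, CCI 2 was 1.4 times the mean of CCI 1 and CCI 3. Tmem119 had 13.5, 25.8 and 25.6 CPM in CCI, against 11.4 and 25.5 CPM in SHAM. Trem2 had 10.4, 13.7 and 17.1 CPM in CCI, against 5.91 and 7.85 CPM in SHAM. Among the 14 microglial rows 9 were highest in CCI 2, 3 in CCI 3 and 2 in CCI 1. Of all tested genes 23%, 24.9% and 11.8% were highest in CCI 2, CCI 3 and CCI 1. The median ratio of CCI 2 to the mean of CCI 1 and CCI 3 was 1.1 over the microglial rows. Col3a1, of fibroblasts, was high in CCI 2 and CCI 3 (417 and 265 CPM, with 19.3 CPM in CCI 1), against 22.2 and 36.8 CPM in SHAM. The part of leukocytes, microglia, fibroblasts or Schwann cells in the interferon gene values was not tested.

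**Figure D4:**
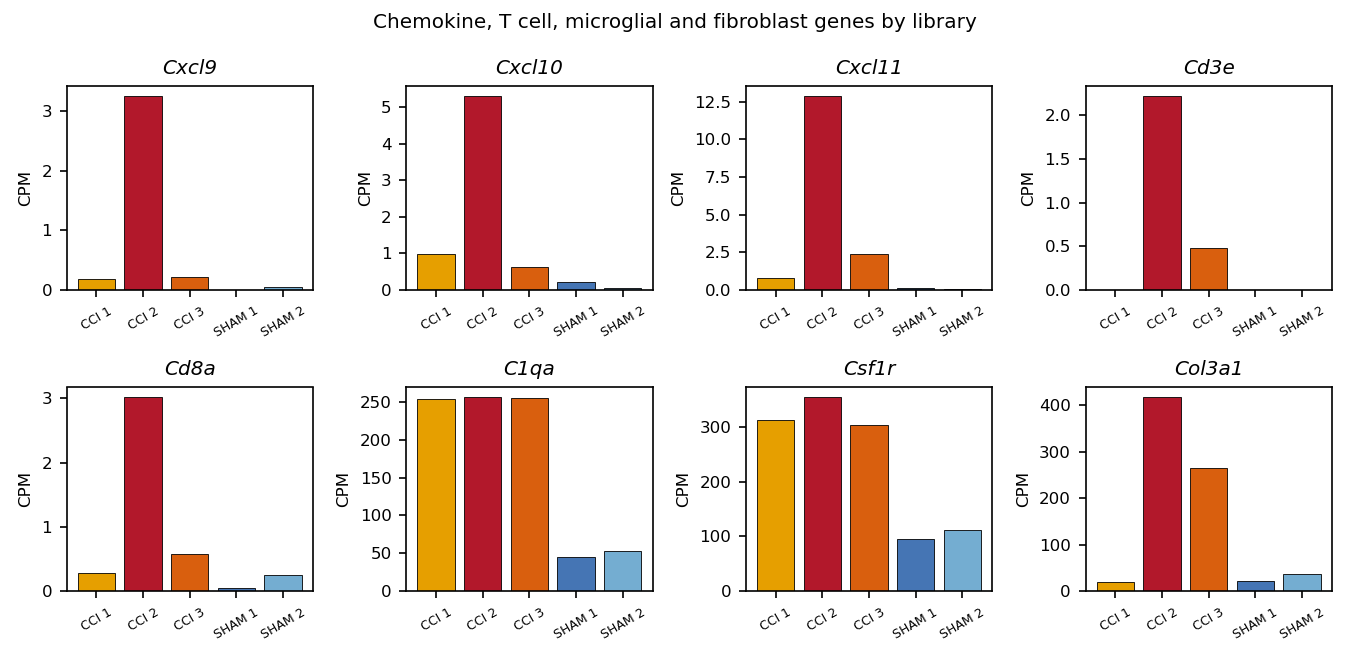
Level in CPM (linear axes from 0) of chemokine genes (Cxcl9, Cxcl10, Cxcl11), T cell genes (Cd3e, Cd8a), microglial genes (C1qa, Csf1r) and the fibroblast gene Col3a1, with 1 bar per library. The chemokine and T cell genes peak in CCI 2, the microglial genes shown are level across CCI 1, CCI 2 and CCI 3, and Col3a1 is high in CCI 2 and CCI 3.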

How the data were processed

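RNA of 3 CCI and 2 SHAM libraries of rat dorsal horn was sequenced, and groups follow the treatment label; libraries are numbered by accession, which pairs none of them. Estimated counts by gene symbol were deposited (kallisto 0.44.0, build rn6, per the submitters' processing notes); such counts are fractional where reads fit several rows. A further deposited table, named TPM, is read here as a signal since column totals differ; per the labels its scaling used trimmed mean of M-values (TMM). The annotation used is not given in the sources used here.

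Counts were rounded and tested with edgeR 4.0.16 in R 4.3.3: filterByExpr (minimum count 10), TMM scaling, a robust glmQLFit and the two-sided glmQLFTest. Adjustment was by Benjamini-Hochberg over the 13478 genes tested. Thresholds were an adjusted p of 0.05 and a fold of 1.5, which the series states. The SE is the log2 fold change over the root of F. The fit has 3 residual degrees of freedom. Depth was 20053353 to 23673198 counts per library. The limit given for a count of 0 covers counting error only, while the SE also takes in variation between libraries. The fit was tested on simulated data with 200 changed genes.

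The members, pathway lists and marker lists were chosen with earlier results of these data known. By the naming rule every member is reported; of each pathway list, called genes up to 6 by p, or the 3 smallest p; Ifnar1, Jak2, the chemokines, Ifng, Ifnb1 and the single marker genes were named after their values were seen. Alternatives were other scalings and filters, DESeq2 1.42.0, the likelihood ratio test, limma-voom (limma 3.58.1), limma on log2(TPM + 0.5) and log2(TPM + 0.1), a Schwann cell covariate, each library left out and, added later, summed Ifitm and Mx rows. Promoters were matched to RefSeq by symbol. Figures were drawn with matplotlib 3.10.9. Some pathway and marker genes are not reported here.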

Additional observations from a re-analysis of the deposited data

How the results depend on the processing

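The number of interferon response genes called higher was 1 in the main test. It was 2 with library size as the only scaling, with limma-voom, with the deposited TPM table at a pseudocount of 0.1 and with the Ifitm and Mx rows summed, and 7 with both DESeq2 and the likelihood ratio test. Leaving out each library in turn gave 1 to 6. The number called lower was 0 throughout, and the median log2 fold change of the members kept its sign and moved by less than the spread between the CCI libraries in every setting tried. Of the 84 further pathway genes 14 were called higher; the count was 29 with the likelihood ratio test, 30 with DESeq2 and 7 with the Schwann cell covariate, and 0 to 28 when each library was left out.

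Members with small fold changes turned sign, none of them called in any setting. With the Schwann cell covariate the log2 fold change was -0.25 for Ifi27, -0.14 for Ifit2, -0.13 for Ifit3, -0.13 for Oas1a, -0.034 for Oasl, -0.31 for Usp18 and 0.11 for Trex1. With limma-voom Ifit2 was at -0.0055. With each library left out in turn, the ranges were -0.063 to 0.39 for Ifi27 (lowest without SHAM 1), -0.12 to 0.084 for Ifit2 (below 0 without CCI 3, and at -0.039 without SHAM 2), -0.30 to 0.31 for Oasl (lowest without CCI 2), -0.048 to 0.32 for Usp18 (lowest without CCI 3) and -0.11 to 0.10 for Trex1 (above 0 without CCI 3, and at 0.071 without SHAM 2). The cause was not tested. Genes under 1 CPM, such as Oas2 and Oasl, rest on few counts. No paired analysis was possible because the labels give no replicate numbers.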
